A study of Homo sapiens with 8 samples.

Results

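The genes described are the ISG15 modifier system and the IFITM family: ISG15, the enzymes UBA7, UBE2L6, HERC5 and HERC6 that act in its conjugation, the protease USP18, and IFITM1, IFITM2 and IFITM3. They are the 9 rows of these symbols among the 32803 genes of a table of RNA-seq counts from human ovarian cancer cells. All 9 passed the filter on low counts, as did 16221 genes in all. UWB1.289 is an ovarian cancer cell line with mutated BRCA1, and UWB1.289+BRCA1 is a stable derivative that expresses BRCA1. From each line a derivative resistant to PARP inhibitors, drugs that block poly(ADP-ribose) polymerases, was measured beside its parent. The groups were resistant BRCA1-proficient cells (Olres-UWB1.289+BRCA1, passage 45), parental BRCA1-proficient cells (UWB1.289+BRCA1, passage 10), resistant BRCA1-deficient cells (Olres-UWB1.289, passage 56) and parental BRCA1-deficient cells (UWB1.289, passage 29). All cells grew without drug, and no interferon treatment is named. Each state is 1 derived line with 2 libraries (n = 2 throughout), and passage and resistance changed together. Nothing in the sources says that replicates came from separate cultures. All p-values below therefore rest on the scatter of these libraries alone, which may be technical.

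Type I interferon binds its receptor, the kinases JAK1 and TYK2 then activate transcription factors of the STAT family, and STAT2 acts with IRF9 in the complex ISGF3. ISGF3 binds interferon-stimulated response elements (ISREs) in the promoters of its target genes, and the genes described here are textbook targets. ISG15 is a ubiquitin-like protein that UBA7 (the E1 enzyme), UBE2L6 (E2) and HERC5 (E3) attach to other proteins. In the mouse, which has no HERC5, HERC6 is the main ISG15 ligase. USP18 takes ISG15 off its targets and also sits on the interferon receptor, where it damps signalling. IFITM1, IFITM2 and IFITM3 are small membrane proteins that hinder the entry of enveloped viruses.

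The ISRE is the sequence that links these genes to interferon, so it was searched in the RefSeq promoter windows (GRCh38.p14), which span 250 bases before to 50 after a gene's start and matched 6 of the 9 genes. UBA7, USP18 and IFITM2 had no entry. The core GAAANNGAAA, read on both strands and with overlapping matches kept, occurred in 4 of these 6 windows (ISG15, HERC5, IFITM1 and IFITM3), against 3.65% of 27305 windows. It also occurred in 16 of 23 windows of other interferon-stimulated genes. The stretches that hold the matches are shown because they differ in number, spacing and strand of the core, and capitals mark the core. Each is read along the gene's own strand, which is plus for ISG15 (chr1:1013354-1013429), HERC5 (chr4:88456964-88457084) and IFITM1 (chr11:313970-314043) and minus for IFITM3 (chr11:320861-320942).
ISG15: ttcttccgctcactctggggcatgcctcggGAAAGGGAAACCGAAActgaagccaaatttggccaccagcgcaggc
HERC5: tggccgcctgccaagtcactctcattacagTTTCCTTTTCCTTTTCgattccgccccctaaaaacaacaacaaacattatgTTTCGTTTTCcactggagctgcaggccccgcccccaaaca
IFITM1: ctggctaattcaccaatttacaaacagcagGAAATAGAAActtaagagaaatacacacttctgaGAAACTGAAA
IFITM3: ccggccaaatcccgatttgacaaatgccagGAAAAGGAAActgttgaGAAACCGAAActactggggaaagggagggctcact

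ISG15 holds 2 overlapping cores. HERC5 holds 3 on the opposite strand, written as TTTCNNTTTC, of which 2 overlap. IFITM1 and IFITM3 hold 2 separate cores each, and the second of IFITM1 crosses its annotated start. A core with 1 end base fewer, GAAANNGAA, was in the same 4 windows, against 8.29% of all windows. UBE2L6 and HERC6 had no match to these letters in this window. A match is a description of sequence and no evidence of binding.

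**Figure D1:**
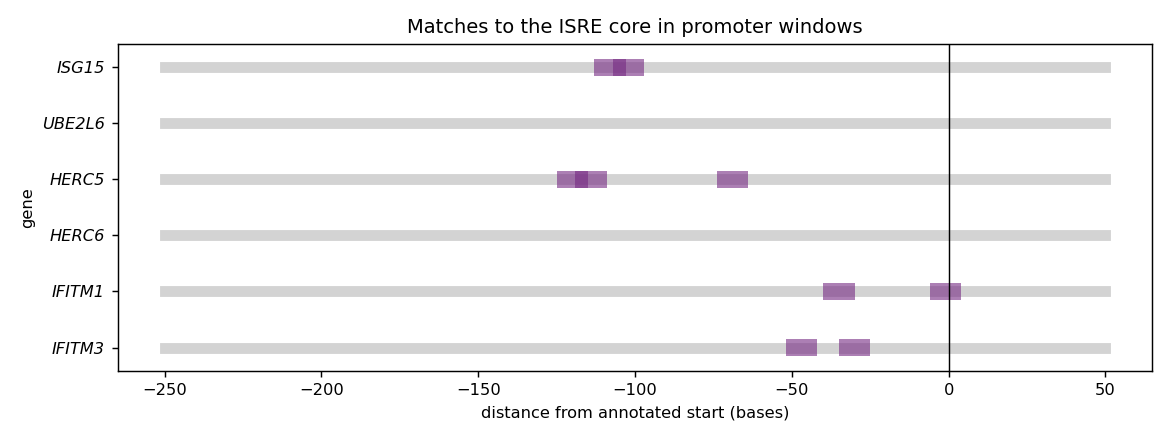
Matches to the ISRE core in the 6 promoter windows, by distance in bases from the annotated start (vertical line). The cores of ISG15 and HERC5 lie farther from the start than those of IFITM1 and IFITM3, and UBE2L6 and HERC6 have none.

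Library totals ran from 24094821 to 34394107 counts. As a check of the labels, BRCA1 was read in CPM (counts relative to the TMM-scaled library total). It stood at 2176 and 2365 CPM in resistant proficient libraries and at 212 and 191 CPM in parental proficient ones. In deficient libraries it stood at 34.7 and 34.8 CPM (resistant) and 36.0 and 35.1 CPM (parental). The proficient lines thus differed in BRCA1 level as well as in resistance and passage. The part of BRCA1 level in their comparison and in the interaction was not tested. The epithelial carcinoma markers summed to 3751 to 7992 CPM, with 7 or 8 of 8 at 1 CPM or more in each group. Leukocyte markers (6 genes) summed to 18.6 to 29.9 CPM over all libraries. Endothelial markers (3 genes) summed to 38.6 to 45.3 CPM in deficient libraries and 2.49 to 4.68 CPM in proficient ones. Fibroblast markers (4 genes) summed to 4.40 to 9.76 CPM in resistant deficient libraries and 29.8 to 58.0 CPM in the others. CD3E of T cells was at 0 counts in both libraries of 3 groups and DCN of fibroblasts in both libraries of 3 groups. Of the same lists, PTPRC, CD68, COL1A1 and COL1A2 had a mean of 1 CPM or more in every group. CD14 did so in the proficient groups alone. In such bulk RNA, fewer cells expressing a gene and less RNA per cell cannot be told apart, and the part of these markers in the results below was not tested.

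The libraries differed in how counts depended on the GC content of the transcript. In the tenth of genes with the highest GC content, the median deviation from the gene mean over all libraries was -0.49 and -0.84 (log2) in resistant proficient libraries and -0.79 and -0.57 in parental proficient ones. It was 1.47 and 0.92 in resistant deficient libraries, against 0.29 and 0.07 in parental deficient ones. The sign thus went with BRCA1 state, and the size was greatest in the resistant deficient libraries. ISG15 has the highest transcript GC content of the 9 genes (63.4%), followed by UBA7 (58.3%), UBE2L6 (57.2%), IFITM3 (56.9%), IFITM2 (55.4%), IFITM1 (52.5%), USP18 (51.6%), HERC6 (46.3%) and HERC5 (44.1%). The 9 genes were therefore tested both as counted and after the trend of each library on GC content was removed (GC-corrected). Corrected levels are given in the text for ISG15 and plotted for the other genes, and values not called GC-corrected are as counted. Whether the trend is technical was not tested.

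**Figure D2:**
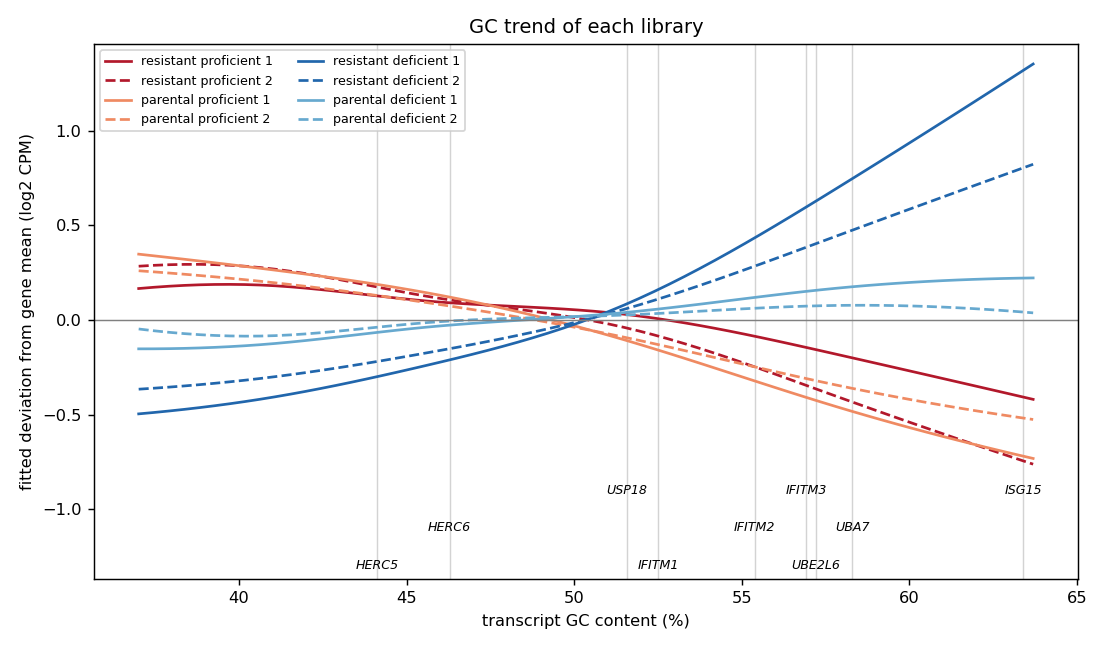
Fitted deviation of log2 CPM from the gene mean (vertical axis) by transcript GC content in percent (horizontal axis), 1 line for each of the 8 libraries, with grey lines at the GC content of the 9 genes. At the GC content of ISG15 the lines of resistant deficient libraries stand at 1.32 and 0.81, against 0.22 and 0.04 for parental deficient libraries, and at that of USP18 all 8 lie within -0.11 to 0.09.

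ISG15, the modifier itself, had 3.26 and 2.04 CPM in resistant proficient libraries, against 1.57 and 1.76 CPM in parental proficient libraries. Its level in deficient cells was 40.1 and 17.2 CPM in resistant libraries, against 11.9 and 8.63 CPM in parental libraries. All deficient libraries stood above all proficient ones, and the 2 resistant deficient libraries were far apart. GC-corrected, ISG15 had 4.33 and 3.42 CPM in resistant proficient and 2.59 and 2.52 CPM in parental proficient libraries, and 16.1 and 9.86 CPM in resistant deficient against 10.2 and 8.36 CPM in parental deficient libraries. After correction the second resistant deficient library fell within the range of the parental deficient ones.

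UBA7, the E1 enzyme that activates ISG15, had 1.73 and 0.916 CPM in resistant proficient libraries, against 2.06 and 2.21 CPM in parental proficient libraries. In deficient cells it had 7.45 and 6.79 CPM in resistant libraries, against 11.0 and 9.89 CPM in parental libraries. The groups did not overlap in either background, and the proficient libraries lay below all deficient ones. UBE2L6, the E2 enzyme that carries activated ISG15, had 26.3 and 23.6 CPM in resistant proficient libraries, against 45.9 and 49.7 CPM in parental proficient libraries. Its level was 17.3 and 16.0 CPM in resistant deficient libraries, against 36.4 and 34.3 CPM in parental deficient libraries. Here both resistant lines lay below their parents, and proficient cells lay above deficient cells of the same drug history.

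HERC5, the human ISG15 ligase, had 24.2 and 29.5 CPM in resistant proficient libraries, against 9.31 and 7.88 CPM in parental proficient libraries. It had 4.93 and 5.35 CPM in resistant deficient libraries, against 7.10 and 8.06 CPM in parental deficient libraries. The resistant proficient libraries stood highest, and those of the parental lines overlapped. HERC6, its paralog beside it on chromosome 4, had 22.2 and 23.4 CPM in resistant proficient libraries, against 4.92 and 4.56 CPM in parental proficient libraries. It had 12.9 and 11.4 CPM in resistant deficient libraries, against 26.2 and 25.2 CPM in parental deficient libraries. No 2 groups overlapped, and the lines with the lowest and the highest level were both parental.

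USP18, the ISG15 protease, had 18.8 and 17.8 CPM in resistant proficient libraries, against 17.6 and 18.7 CPM in parental proficient libraries. It had 17.2 and 17.9 CPM in resistant deficient libraries, against 32.8 and 32.6 CPM in parental deficient libraries. The parental deficient libraries stood alone, and the libraries of the other 3 groups overlapped.

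IFITM1, which acts mainly at the cell surface, had 1.70 and 1.17 CPM in resistant proficient libraries, against 1.17 and 2.25 CPM in parental proficient libraries. It had 13.9 and 12.3 CPM in resistant deficient libraries, against 49.9 and 41.6 CPM in parental deficient libraries. The proficient groups overlapped, far below both deficient groups. IFITM2, found in late endosomes and lysosomes, had 0.486 and 0.624 CPM in resistant proficient libraries (14 and 15 counts), against 0.685 and 0.726 CPM in parental proficient libraries (17 and 21 counts). Its level was 29.7 and 28.2 CPM in resistant deficient libraries, against 15.8 and 12.5 CPM in parental deficient libraries. IFITM2 and ISG15 were the genes of the 9 with their highest CPM in the resistant deficient libraries. IFITM3, also endosomal and the member best known for restricting influenza virus, had 70.2 and 54.9 CPM in resistant proficient libraries, against 21.2 and 22.4 CPM in parental proficient libraries. It had 119 and 94.1 CPM in resistant deficient libraries, against 137 and 117 CPM in parental deficient libraries. The deficient groups overlapped and the parental proficient libraries were lowest.

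**Figure D3:**
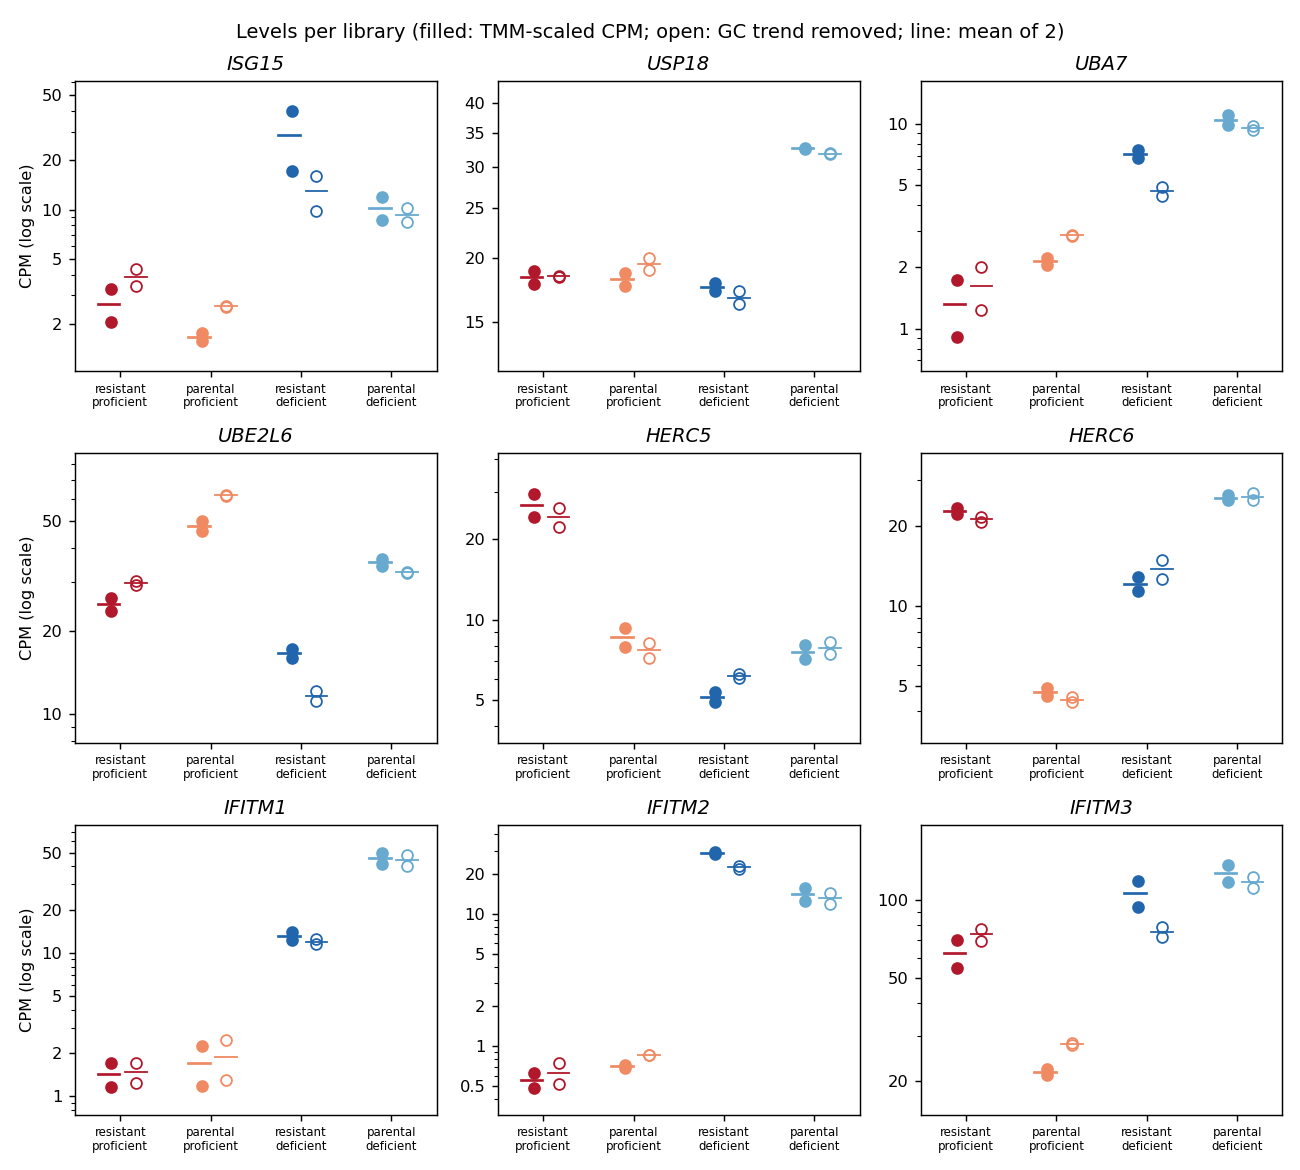
Level of each of the 9 genes in every library in CPM on a log axis (filled points as counted, open points GC-corrected, lines the means of 2 libraries) by group. ISG15 at 40.1 and 17.2 CPM as counted in resistant deficient libraries is the value that correction moves most, and IFITM1 and IFITM2 separate deficient from proficient cells at every point.

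Per kilobase of merged exon, IFITM3 was the most abundant of the 9 genes in 3 groups, at 46.4 ± 8.01 CPM per kb in resistant proficient, 79.0 ± 13.0 in resistant deficient and 94.5 ± 10.4 in parental deficient cells (mean ± SD). In parental proficient cells UBE2L6 led with 21.8 ± 1.21 CPM per kb, followed by IFITM3 with 16.2 ± 0.609. USP18 had 8.61 ± 0.340 CPM per kb in resistant proficient, 8.53 ± 0.360 in parental proficient, 8.24 ± 0.230 in resistant deficient and 15.4 ± 0.0496 in parental deficient cells. The E1 enzyme UBA7 was low throughout, from 0.292 ± 0.127 CPM per kb in resistant proficient to 2.30 ± 0.170 in parental deficient cells. HERC5 was above HERC6 per kilobase in resistant proficient (5.64 ± 0.792 and 3.94 ± 0.150) and parental proficient cells (1.80 ± 0.212 and 0.818 ± 0.0434). HERC5 was below HERC6 in resistant deficient (1.08 ± 0.0620 and 2.09 ± 0.186) and parental deficient cells (1.59 ± 0.142 and 4.44 ± 0.126). Each of these pairs differed by more than the SDs, and the ratio was not tested.

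The IFITM genes are close paralogs, which bears on how reads are assigned. IFITM2 and IFITM3 are 93.2% identical over their coding sequence, IFITM1 and IFITM3 68.4%, IFITM1 and IFITM2 66.4%, and HERC5 and HERC6 64.5%. The transcript with the longest coding region was cut into all its 75-base windows. Of these, 4.52% of IFITM2 were found unchanged in IFITM3 and 8.58% of IFITM1 in IFITM3, and none of HERC5 in HERC6. How the authors counted reads that match several places is not given in the sources used here, so some IFITM reads could be assigned to a neighbour or lost. In proficient cells IFITM2 stayed at 14 to 21 counts beside 526 to 2024 counts of IFITM3.

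Resistant BRCA1-deficient cells were set against their parental line to ask which genes differ with resistance where BRCA1 is lacking. Most of the conjugation pathway was lower in resistant deficient cells, and the modifier ISG15 was higher. Of the 9 genes, 6 fell (UBA7, UBE2L6, HERC5, HERC6, USP18 and IFITM1), 2 rose (ISG15 and IFITM2) and IFITM3 did not pass. Of all genes tested, 27% fell and 28.9% rose, 55.8% in all. GC-corrected, 7 of the 9 fell and 2 rose, against 27.9% and 31.7% of all genes. The 2 groups were without overlap in 8 of the 9 genes, against 78.7% of all genes, and the median log2 fold change of the 9 was -0.56, against 0.03 over all genes.

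IFITM1 fell most, with a log2 fold change of -1.80 ± 0.20 (SE; edgeR adjusted p = 2.61e-05), or -1.89 ± 0.13 GC-corrected (adjusted p = 4.14e-10). UBE2L6 gave -1.09 ± 0.10 (edgeR adjusted p = 9.37e-06) and -1.48 ± 0.08 GC-corrected (adjusted p = 7.52e-12). HERC6 changed by -1.08 ± 0.12 (adjusted p = 3.09e-05) and USP18 by -0.90 ± 0.10 (adjusted p = 3.91e-05), which became -0.92 and -0.93 GC-corrected. HERC5 gave -0.56 ± 0.17 (edgeR adjusted p = 0.0140) and -0.35 GC-corrected (adjusted p = 0.0420), and its call was lost without parental deficient replicate 2 (-0.50, adjusted p = 0.0834). GC-corrected, the call of HERC5 was lost without resistant deficient replicate 1 (adjusted p = 0.112), resistant deficient replicate 2 (0.0861) or parental deficient replicate 2 (0.217). These 5 genes thus fell both as counted and GC-corrected with all libraries in the fit, and HERC5 depended on single libraries.

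For UBA7 the correction made the difference larger, from a log2 fold change of -0.55 ± 0.21 as counted (edgeR adjusted p = 0.0469) to one of -1.03 ± 0.17 (adjusted p = 2.91e-05). As counted, the call was lost with DESeq2 (adjusted p = 0.108), with RLE factors (0.0543) and without any of 5 single libraries. IFITM3 gave -0.26 ± 0.13 as counted (edgeR adjusted p = 0.115) and fell by 0.64 GC-corrected (SE 0.06, adjusted p = 4.45e-08). It also passed as counted without resistant deficient replicate 1 (-0.46, adjusted p = 0.00692), without a filter on low counts (-0.28, adjusted p = 0.00415) and with the replicate number as a block (-0.26, adjusted p = 0.0287).

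The size of the rise of ISG15 depended on the GC correction and on 1 library. Its log2 fold change was 1.47 ± 0.33 as counted (edgeR adjusted p = 0.00314) and 0.48 ± 0.17 GC-corrected (adjusted p = 0.0222). Without resistant deficient replicate 1, the library with the steepest GC trend, it was 0.71 as counted (adjusted p = 0.0170) and 0.10 GC-corrected (adjusted p = 0.660). GC-corrected it also lost its call without parental deficient replicate 2 (0.35, adjusted p = 0.198). IFITM2 rose by 1.03 ± 0.15 (edgeR adjusted p = 0.000163), or by 0.78 ± 0.12 GC-corrected (adjusted p = 1.54e-05), and passed under every alternative run. Thus IFITM1 fell and IFITM2 rose between the same libraries, although the genes are adjacent on chromosome 11.

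The same question was asked of the BRCA1-proficient lines, where BRCA1 itself was also higher in the resistant cells. Both HERC genes and IFITM3 rose, UBE2L6 fell, and the other 5 genes did not pass. Of all genes tested, 25.9% rose and 27.8% fell, 53.7% in all, and the 2 groups were without overlap in 7 of the 9 genes, against 76.4% of all genes. GC-corrected, 3 of the 9 rose and 2 fell, against 29.5% and 33.9% of all genes. The median log2 fold change of the 9 was 0.01, against -0.00 over all genes.

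HERC6 rose by 2.27 ± 0.13 on the log2 scale (edgeR adjusted p = 1.65e-07), HERC5 by 1.65 ± 0.16 (adjusted p = 6.41e-06) and IFITM3 by 1.52 ± 0.14 (adjusted p = 5.33e-06). GC-corrected, these were 2.27, 1.66 and 1.41. The fall of UBE2L6 was -0.94 ± 0.10 (edgeR adjusted p = 1.70e-05) and -1.05 GC-corrected. USP18 gave 0.01 ± 0.11 (adjusted p = 0.929), IFITM1 -0.26 ± 0.31 (adjusted p = 0.510) and IFITM2 -0.36 ± 0.31 (adjusted p = 0.387), or -0.08, -0.37 and -0.48 GC-corrected. With single libraries left out, IFITM1 ran from -0.60 to 0.31 and did not pass, and GC-corrected it passed without parental proficient replicate 1 (-0.73, adjusted p = 0.0294). For IFITM1 and IFITM2, 14 to 65 counts per library limit what could be detected. ISG15 gave 0.68 ± 0.45 (edgeR adjusted p = 0.231) and 0.63 ± 0.29 GC-corrected (adjusted p = 0.0716), higher in both resistant libraries than in both parental ones. It passed without either resistant deficient library (0.72 each, adjusted p = 0.0354 and 0.0333), without a filter on low counts (0.71, adjusted p = 0.00686) and with the replicate block and the GC trend removed together (0.56, adjusted p = 0.0350). Without resistant proficient replicate 1 it was 0.34 (adjusted p = 0.672). UBA7 gave -0.66 ± 0.28 (adjusted p = 0.0664), and passed GC-corrected (-0.78 ± 0.25, adjusted p = 0.0107), with the replicate block (-0.69, adjusted p = 0.0470) and without a filter on low counts (-0.63, adjusted p = 0.0474). Its value rested on the resistant proficient libraries, at -1.17 without replicate 1 (adjusted p = 0.00997) and -0.26 without replicate 2 (adjusted p = 0.434). GC-corrected it did not pass without replicate 2 (-0.52, adjusted p = 0.103).

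The interaction asks whether the difference between resistant and parental cells itself differs between proficient and deficient backgrounds. It passed for 6 of the 9 genes, against 46.7% of all genes tested. In 5 the value was positive, against 21.4% of all genes, and in 1 it was negative, against 25.3%. GC-corrected, 6 were positive and 1 negative, against 24.1% and 31.8% of all genes. HERC6 had the greatest value, 3.35 ± 0.18 log2 units (proficient minus deficient, edgeR adjusted p = 1.79e-07), and HERC5 had 2.21 ± 0.23 (adjusted p = 2.17e-05). IFITM3 gave 1.78 ± 0.19 (adjusted p = 2.98e-05), IFITM1 1.55 ± 0.37 (adjusted p = 0.00553) and USP18 0.91 ± 0.15 (adjusted p = 0.000537). IFITM2 alone was negative (-1.39 ± 0.34, adjusted p = 0.00651). IFITM1 and IFITM2 had 14 to 65 counts in proficient libraries, which limits how far a fall there could be seen. GC-corrected these 6 ran from -1.26 to 3.18 and kept their signs and calls with all libraries in the fit. Without resistant proficient replicate 1 the corrected value of IFITM2 did not pass (-0.98, adjusted p = 0.0637). ISG15 (-0.80 ± 0.56, adjusted p = 0.273), UBA7 (-0.11 ± 0.35, adjusted p = 0.818) and UBE2L6 (0.15 ± 0.14, adjusted p = 0.419) did not pass. Of these, UBE2L6 passed GC-corrected (0.43 ± 0.11, adjusted p = 0.00234), and UBA7 and ISG15 gave 0.25 and 0.14 (adjusted p = 0.515 and 0.754). As counted, ISG15 passed without resistant deficient replicate 2 (-1.21, adjusted p = 0.00939) and without a filter on low counts (-0.75, adjusted p = 0.0296), and it was 0.01 without resistant deficient replicate 1 (adjusted p = 0.997).

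**Figure D4:**
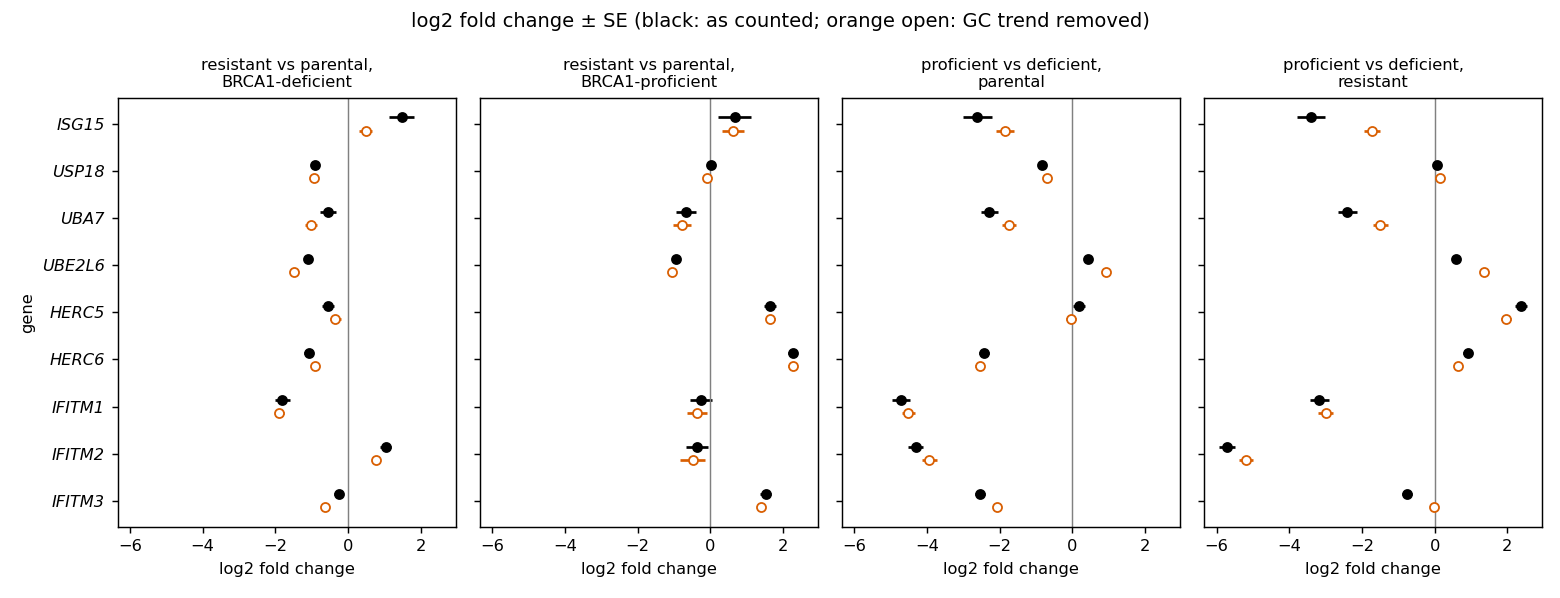
Fitted log2 fold change with its SE (horizontal axis) of the 9 genes in the 4 comparisons of groups, as counted (black) and GC-corrected (orange, open). The values of HERC6, -1.08 in deficient and 2.27 in proficient resistant cells, stand on opposite sides of 0, and IFITM3 in resistant proficient against resistant deficient cells falls to -0.03 after correction.

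Parental BRCA1-proficient cells were compared with parental deficient cells to show how the lines differed before resistance. This comparison uses the same parental libraries as both resistance comparisons. Of the 9 genes, 7 were lower in proficient cells, UBE2L6 was higher and HERC5 did not pass. Of all genes tested, 30.1% were lower and 32.3% higher, 62.4% in all, and the groups were without overlap in 8 of the 9 genes, against 83% of all genes. GC-corrected, 7 of the 9 were lower and 1 higher, against 30.6% and 33.5% of all genes. The median of the 9 was -2.44, against 0.00 over all genes.

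IFITM1 was lower by a log2 of -4.72 ± 0.25 (edgeR adjusted p = 6.20e-08), IFITM2 by -4.31 ± 0.21 (adjusted p = 3.51e-08) and IFITM3 by -2.55 ± 0.14 (adjusted p = 1.10e-07). The 3 IFITM genes thus all stood lower in proficient cells, IFITM1 at 0.0380 times its level in deficient cells. ISG15 gave -2.62 ± 0.41 (edgeR adjusted p = 0.000193), HERC6 -2.44 ± 0.13 (adjusted p = 8.86e-08), UBA7 -2.29 ± 0.24 (adjusted p = 1.03e-05) and USP18 -0.85 ± 0.10 (adjusted p = 3.51e-05). UBE2L6 was higher by 0.44 ± 0.10 (adjusted p = 0.00275), and HERC5 gave 0.18 ± 0.16 (adjusted p = 0.359). GC-corrected, the genes richest in GC moved most, ISG15 to -1.86, UBA7 to -1.74 and UBE2L6 to 0.93, HERC5 gave -0.03, and the same 8 genes passed.

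Resistant proficient cells were likewise compared with resistant deficient cells. Here 5 of the 9 genes were lower (ISG15, UBA7, IFITM1, IFITM2 and IFITM3), 3 were higher (UBE2L6, HERC5 and HERC6) and USP18 did not pass. Of all genes tested, 37.5% were lower and 36.3% higher, 73.8% in all, and the groups were without overlap in 8 of the 9 genes, against 86.5% of all genes. GC-corrected, 4 of the 9 were lower and 3 higher, against 39.2% and 34.1% of all genes. IFITM2 was lower by a log2 of -5.71 ± 0.21 (edgeR adjusted p = 2.10e-09), at 0.0191 times its level in resistant deficient cells. ISG15 gave -3.41 ± 0.38 (adjusted p = 9.46e-06), IFITM1 -3.17 ± 0.25 (adjusted p = 6.78e-07) and UBA7 -2.40 ± 0.26 (adjusted p = 6.46e-06). HERC5 was higher by 2.38 ± 0.16 (adjusted p = 2.07e-07), HERC6 by 0.91 ± 0.12 (adjusted p = 4.10e-05) and UBE2L6 by 0.59 ± 0.11 (adjusted p = 0.000361). Within the resistant lines the HERC genes and the modifier ISG15 therefore differed in opposite directions, whether or not GC was corrected. Correction brought ISG15 to -1.72, UBA7 to -1.49, UBE2L6 to 1.36, HERC5 to 1.97 and HERC6 to 0.63, and IFITM1 and IFITM2 to -2.998 and -5.19. It brought IFITM3 from a difference of -0.76 ± 0.13 (adjusted p = 0.000310) to one of -0.03 ± 0.06 (adjusted p = 0.704), so that the call for IFITM3 was lost. USP18 gave 0.06 ± 0.11 (adjusted p = 0.612).

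Upstream of these genes, the interferon signalling list (IFNAR1, IFNAR2, JAK1, TYK2, STAT2, IRF9, SOCS1 and SOCS3) was read in the same fit. In resistant against parental deficient cells 4 of its 8 genes fell, against 27% of all genes, and TYK2 rose, against 28.9%. The median log2 fold change of the list was -0.24, and 55.8% of all genes passed in either direction. IRF9 fell by 2.06 (SE 0.11) and STAT2 by 0.71 (SE 0.07; edgeR adjusted p = 2.12e-07 and 1.40e-05), as did JAK1 (-0.57) and the receptor chain IFNAR2 (-0.50). TYK2 gave 0.82 as counted (adjusted p = 0.00136) and 0.07 GC-corrected (adjusted p = 0.422). Between the proficient lines 4 rose in resistant cells, against 25.9% of all genes, and JAK1 fell (-0.44), against 27.8%, with a median of 0.44. Those that rose were SOCS3, a feedback inhibitor (1.92), IFNAR1 (0.60), TYK2 (0.49) and STAT2 (0.39), and IRF9 gave 0.20 (adjusted p = 0.156). IRF9 stood at 22.3 and 20.8 CPM in resistant proficient and 17.9 and 19.5 CPM in parental proficient libraries, and at 17.7 and 15.3 CPM in resistant deficient against 64.8 and 72.8 CPM in parental deficient libraries. Like USP18, IRF9 stood highest in the parental deficient libraries, without overlap with the other 3 groups.

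In parental proficient against parental deficient cells, 2 of the 8 signalling genes were higher (JAK1 1.20, STAT2 0.80) and 2 lower (IRF9 -1.88, TYK2 -0.94). Their median was 0.16, and 32.3% of all genes were higher and 30.1% lower. GC-corrected, 4 of the 8 were higher and 3 lower, with a median of 0.30. In resistant proficient against resistant deficient cells the median was 0.90. There 6 genes were higher, against 36.3% of all genes, and TYK2 was lower (-1.28), against 37.5%. STAT2 led these with 1.90 ± 0.07 (edgeR adjusted p = 2.34e-09), before SOCS3 (1.70), JAK1 (1.32), IFNAR1 (0.54), IRF9 (0.39) and IFNAR2 (0.36). The lower level of TYK2, and the higher levels of IFNAR1 and IFNAR2, did not pass GC-corrected. The interaction was positive for IRF9 (2.26), SOCS3 (1.34), STAT2 (1.11) and IFNAR1 (0.57), with 4 genes not passing. Of all genes tested, it passed for 46.7% and was positive for 21.4%. GC-corrected, 5 of the 8 were positive, against 24.1% of all genes.

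The 9 genes were set beside 30 other interferon-stimulated genes. In resistant against parental deficient cells 26 of these fell, against 27% of all genes, and IRF7 rose, against 28.9%. The other 3 did not pass, and the median log2 fold change of the 30 was -1.59. The smallest p-values were those of IFI44L (-4.70) and IFI6 (-2.81). IRF7, the transcription factor that amplifies interferon production, had 10.3 and 5.06 CPM in resistant deficient against 4.05 and 2.58 CPM in parental deficient libraries, the first resistant library being the highest, as for ISG15. Its value went from 1.21 as counted (edgeR adjusted p = 0.0123) to -0.11 GC-corrected (adjusted p = 0.688). Between the proficient lines 18 rose in resistant cells, against 25.9% of all genes, 3 fell, against 27.8%, and 9 did not pass (median 1.58). By p-value SAMD9 (4.38) and IFI44 (3.72) came first among those that rose, and EPSTI1 (-2.23) and DTX3L (-0.48) among those that fell.

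Between parental lines, 25 of the 30 were lower in proficient cells, against 30.1% of all genes. There 2 were higher (IFIT5 0.49, EPSTI1 0.31), against 32.3%, and 3 did not pass. The median of the 30 was -2.52. IFI44 (-5.69) and OAS3 (-3.93) had the smallest p-values, and neither IFIT5 nor EPSTI1 passed GC-corrected. Between resistant lines 15 were higher in proficient cells, 9 lower and 6 did not pass (median 0.58). SAMD9 (2.56) and BST2 (2.01) had the smallest p-values among the higher ones, and OAS3 (-2.38) and IFI35 (-3.48) among the lower ones. GC-corrected, 14 of the 30 were higher and 11 lower, with a median of 0.13. As counted, 36.3% of all genes were higher and 37.5% lower. The interaction was positive in 25 and negative in EPSTI1 alone (-0.64), with a median of 3.07, and the smallest p-values were those of IFI44 (5.74) and IFI44L (8.43). Of all genes tested, it was positive for 21.4% and negative for 25.3%. The median over the 9 genes was 0.91, and that over all genes -0.08. GC-corrected, the median of the 30 was -1.43 in resistant against parental deficient cells and 1.57 between the proficient lines. It was -2.67 between parental lines and 3.01 for the interaction.

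**Figure D5:**
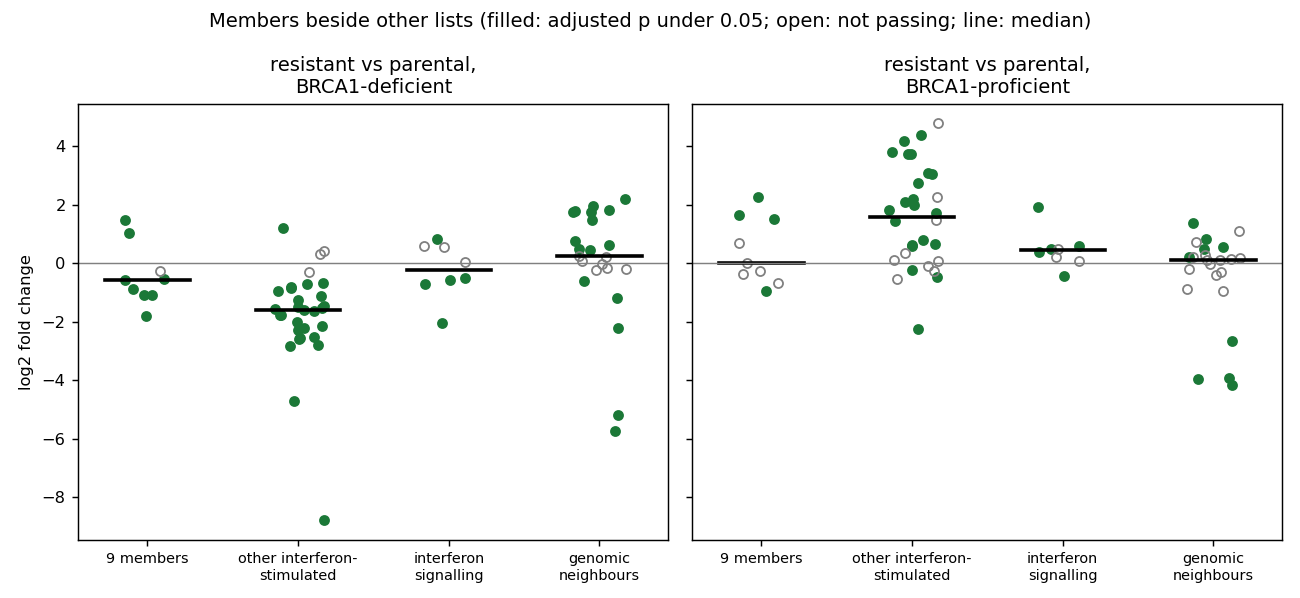
Fitted log2 fold changes (vertical axis) of the 9 genes, 30 other interferon-stimulated genes, 8 signalling genes and the 23 neighbours tested, in resistant against parental cells of each background (filled, adjusted p under 0.05; lines, medians). The other interferon-stimulated genes lie mostly below 0 in deficient cells (median -1.59) and above it in proficient cells (median 1.58), and the lowest point is MX2, at 0 counts in resistant deficient libraries, whose fitted value is no bound.

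Other genes of the same families, most of them not classical interferon targets, were read in the same fit. Of 5 other genes linked to ISG15 conjugation or related E1 and E2 enzymes, the ligase TRIM25 was lower in proficient cells both among parental (-1.02) and among resistant lines (-0.77). In resistant against parental deficient cells UBA1 (0.58) and UBE2L3 (0.27) rose and UBA6 fell (-0.26), and TRIM25 (-0.04) and ARIH1 (-0.06) did not pass. GC-corrected, UBA6 did not pass (0.11, adjusted p = 0.0826) and ARIH1 rose (0.21, adjusted p = 0.00120). Between the proficient lines UBA1 (0.36), UBE2L3 (0.22) and TRIM25 (0.21) rose, ARIH1 fell (-0.55) and UBA6 did not pass (-0.17), and the rise of UBE2L3 was lost GC-corrected (0.11, adjusted p = 0.0714). Among the 4 other HERC genes, HERC2 rose (0.96 in deficient and 0.52 in proficient resistant cells) and HERC4 fell (-0.63 and -0.78). HERC1 rose in proficient resistant cells (0.33), and GC-corrected also in deficient ones (0.27, adjusted p = 0.000304). HERC3, near HERC5 on chromosome 4, passed in neither resistance comparison as counted (-0.17 in deficient and -0.30 in proficient cells), and GC-corrected it fell in proficient resistant cells (-0.30, adjusted p = 0.0404). Of the other IFITM genes, IFITM5 had 0 counts in all 8 libraries and IFITM10 had 0.104 to 0.684 CPM. Among genes whose products modify IFITM3, the ubiquitin ligase NEDD4 fell in resistant deficient (-0.74) and resistant proficient cells (-1.05), and the palmitoyltransferase ZDHHC20 likewise (-0.39 and -1.23). The methyltransferase SETD7 fell in resistant proficient cells (-0.42) and gave -0.17 in resistant deficient ones. GC-corrected, the fall of ZDHHC20 in deficient cells was lost (-0.08, adjusted p = 0.271).

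The genes on either side of the 9 on their chromosomes were read as well, 3 protein-coding genes a side by RefSeq order, of which 23 of 35 were tested. In resistant against parental deficient cells 11 of these rose and 5 fell, with a median of 0.23, against 6 and 8 GC-corrected. Of all genes tested, 28.9% rose and 27% fell, or 31.7% and 27.9% GC-corrected. All 4 tested neighbours of ISG15 rose with it as counted, PLEKHN1 by 2.20, C1orf159 by 1.96, HES4 by 1.82 and AGRN by 1.74. AGRN had 426 and 206 CPM in resistant deficient libraries, against 104 and 84.7 CPM in parental deficient libraries, so its 2 resistant libraries stood apart in the same way as those of ISG15. GC-corrected, these 4 values were 0.94, 0.81, -0.27 and 0.33. On chromosome 11 the neighbours SIGIRR (1.78), PKP3 (1.74) and B4GALNT4 (1.48) rose in the same comparison while PGGHG on the other side fell (-2.23). GC-corrected, these became 0.37, 0.43, 0.20 and -3.22. IFITM1 thus fell between neighbours of which some rose. Beside HERC6, PPM1K fell in resistant deficient cells (-1.20) and gave 0.14 in resistant proficient ones. Beside UBE2L6, SLC43A1 (-0.60), SMTNL1 (-5.20) and SERPING1 (-5.72) fell in resistant deficient cells. Beside USP18, PEX26 (0.75), MICAL3 (0.63) and TUBA8 (0.49) rose there, as did IP6K1 (0.45) beside UBA7. Between parental lines 12 of the 23 were lower in proficient cells and 2 higher (median -0.74), against 9 and 4 GC-corrected (median -0.24). As counted, 30.1% of all genes were lower and 32.3% higher. Between resistant lines 15 were lower in proficient cells and 2 higher (median -0.81), against 12 and 5 GC-corrected (median -0.28). As counted, 37.5% of all genes were lower and 36.3% higher. Between the proficient lines 5 rose in resistant cells and 4 fell (median 0.12), against 25.9% and 27.8% of all genes.

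Across the 8 libraries, the genes whose log2 CPM followed a member most closely were found among 5000 or 5001 others with a mean of at least 5 CPM and an SD of at least 0.5. These correlations describe 4 groups of 2 libraries that share depth and base composition. The profile of ISG15 was closest to PAGR1 (Pearson r 0.999), SPATA20 (0.998) and TMED1 (0.998), whose transcripts have 61.0%, 60.9% and 60.9% GC. USP18 was closest to ARMCX2 (0.996), IRF9 (0.987) and PLCH1 (0.977), with 49.3%, 55.4% and 44.7% GC. By rank, the Spearman rho of USP18 with these was 0.846, 0.786 and 0.5. For USP18 the parental deficient libraries alone stood apart, so its values of r rest largely on that group. IFITM2 was closest to CAV1 (0.996), PTDSS1 (0.996) and MUC1 (0.996), with 46.2%, 47.8% and 71.2% GC. IFITM3 was closest to SNRNP25 (0.994), CAVIN1 (0.993) and RPS26 (0.991), with 60.3%, 59.9% and 48.0% GC. Spearman rho was 0.929 or more for the genes named beside ISG15, IFITM2 and IFITM3. Among the members themselves, r was 0.964 between UBA7 and IFITM1, 0.943 between ISG15 and IFITM2, 0.346 between HERC5 and HERC6, and -0.798 between UBA7 and HERC5.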

How the data were processed

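RNA-seq counts of 8 libraries in 4 groups of 2 were used. The authors deposited raw counts per gene symbol as integers that had not been normalised. GRCh37, Trimmomatic 0.39, Subread 2.0.1, featureCounts and DESeq2 1.24.0 are listed, per the submitters' processing notes, without a role. Annotation, strand and the handling of multi-mapped reads were not given in the sources used here, so reads of overlapping, antisense or near-identical genes cannot be told apart. Groups and replicate numbers came from the titles, of which 1 is spelled "OlredBRCA1-deficient" and was read with its passage as a resistant deficient library.

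The test was edgeR's quasi-likelihood test (edgeR 4.0.16, R 4.3.3), with TMM factors, filterByExpr and all 8 libraries in 1 fit, which left 4 residual degrees of freedom. Benjamini-Hochberg adjustment covered the 16221 genes tested, and "rose", "fell" and "passed" mean an adjusted p under 0.05. For GC-corrected values, the deviation of log2 CPM (prior count 2) from the gene mean was fitted in each library by a natural spline (5 degrees of freedom) on the GC content of the longest transcript (GENCODE v29, GRCh38), and the fit was used as an offset. This covered 15665 of the genes tested (96.6%). Corrected p-values are tied to a refit that treats the trend as known.

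The members and lists were chosen with earlier results of these data known. All 9 members are named. From lists of 9 genes or fewer every gene could be named, and from longer lists the 2 smallest p-values per direction. Genomic neighbours were named outside this rule. Those named as neighbours are all that passed as counted in resistant against parental deficient cells. MX2 was named after its values were seen. 1 gene of the interferon signalling list is not reported here and was left out of the list's counts and medians. Replicates were compared by chi-square, which per degree of freedom was 4.21 to 22.5, so none were alike. Alternatives were RLE factors, library totals, other filters, DESeq2 1.42.0, fits of 2 groups, the replicate number as a block, each library left out, and other GC corrections. Tested on simulated data, the steps returned fold changes near those put in. They found fewer changed genes for the interaction than for the pairwise comparisons, and the bound set for the interaction was lowered after that result. In several runs they made more false calls than the nominal rate of the adjustment. Adjusted p-values close to the threshold should therefore be read with care. Among these are UBA7 as counted and HERC5 GC-corrected in resistant against parental deficient cells.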

Additional observations from a re-analysis of the deposited data

Results flagged for a closer look

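For 6 of the 9 genes the difference between resistant and parental cells differed between BRCA1-proficient and deficient backgrounds by edgeR's interaction term (proficient minus deficient, log2). USP18 gave 0.91, with 0.01 in proficient and -0.90 in deficient cells. HERC5 gave 2.21, with 1.65 in proficient and -0.56 in deficient cells. HERC6 gave 3.35, with 2.27 in proficient and -1.08 in deficient cells. IFITM1 gave 1.55, with -0.26 in proficient and -1.80 in deficient cells, and IFITM3 gave 1.78, with 1.52 and -0.26. IFITM2 gave -1.39, with -0.36 in proficient and 1.03 in deficient cells. Low counts of IFITM1 and IFITM2 in proficient libraries limit both of these interactions. The interaction passed for 46.7% of all genes tested.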

How the results depend on the processing

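Of 45 values of single genes (9 genes in 5 results), 39 kept their side of the threshold under up to 15 alternatives without a GC correction, and 41 when the GC trend was removed. The sign of 3 values that had not passed turned under some alternative without a GC correction (IFITM1 in proficient cells, the interactions of ISG15 and UBA7), and that of 4 with the GC trend removed (both interactions, USP18 in proficient cells and HERC5 between parental lines). The count of all genes called moved by over 1.5 times in 0 of 268 recomputations. Counts of members moved as follows. With the GC content of the promoter window, which covers 6 members by construction, 1 member rose in resistant deficient cells, 4 were lower between parental and 3 between resistant lines, and 0 had a negative interaction. In resistant proficient cells 2 members fell in place of 1 with the GC trend removed, with a spline of 3 degrees of freedom and without a filter on low counts, where 2 interactions were also negative. With single libraries left out as counted, members higher in resistant deficient cells were 2 throughout, members lower in resistant proficient cells 1 to 2, and negative interactions 1 to 2. With the GC trend removed as well, these were 1 to 2, 1 to 3 and 0 to 1. Members lower in resistant deficient cells ran from 4 to 7 as counted and from 6 to 7 GC-corrected. Members higher in resistant proficient cells ran from 3 to 4 both as counted and GC-corrected. The cause was not tested.

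Replicate numbers did not pair the samples: the correlation of same-numbered deviations was 0.121 between the deficient groups, -0.0952 between the proficient, -0.0523 between the parental and 0.212 between the resistant groups. The replicate block changed 2 calls of single genes, given above, so that 2 members fell in resistant proficient cells, also with the GC trend removed in the same fit. Against the fit with the GC trend removed alone, the block changed 1 call, ISG15 in proficient cells (0.56, adjusted p = 0.0350).

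Leaving out libraries with the GC trend removed was added after seeing the data. It reversed IFITM3 between resistant lines, to 0.0427 without resistant proficient replicate 2 and 0.0173 without resistant deficient replicate 1, neither passing. IFITM2, at 14 to 21 counts in proficient libraries, and IFITM1, at 28 to 65, are limited by depth there. The cause of the GC trend was not tested. The sign of the trend went with BRCA1 state, and these 2 cannot be told apart. Its size also differed within a state, at 1.47 and 0.92 in resistant deficient and 0.29 and 0.07 in parental deficient libraries (genes of highest GC content).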
